A study of Mus with 8 samples.

Results

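C/EBPβ and C/EBPδ are transcription factors of the C/EBP family, which bind DNA as dimers through a basic leucine zipper. Their genes, Cebpb and Cebpd, are the family members switched on first when preadipocytes receive adipogenic hormones, and their products in turn act on Cebpa and Pparg, the genes of later adipocyte regulators. C/EBP factors are also known to bind near C/EBP genes themselves. Here the deposited C/EBPβ ChIP-seq peaks around the Cebpb and Cebpd genes were described in 3T3-L1, a preadipocyte line of the mouse.

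All cells were 3T3-L1 cells infected with a lentivirus and selected with puromycin. C cells carried a scrambled hairpin and P cells a hairpin against Prep1, a transcription factor of the homeodomain class. Cells were harvested either before induction, at day −2, or 4 h after it was started with dexamethasone, 3-isobutyl-1-methylxanthine and insulin. Each of the 4 conditions had 1 ChIP library, made with the C19 antibody against C/EBPβ, and 1 input library of sonicated chromatin, so replicates were lacking and the conditions were compared without a test. Names of the peaks in both lists labelled 4 h contain the hour 5.

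Members were chosen by position in the mm9 genome. A window of 202 kb on chromosome 2 from 167414000 to 167616000 surrounded Cebpb, with its start near 167514500 on the plus strand. A window of 203 kb on chromosome 16 from 15787000 to 15990000 surrounded Cebpd, with its start near 15887400 on the plus strand. Both gene starts were taken as given with the windows and carry no more precision than that. In these windows 24 of the 42729 peaks of the 4 lists were found, 21 around Cebpb and 3 around Cebpd. In the RefSeq gene table, which is of another build (GRCm38.p6), the nearest protein-coding genes are Tmem189 and Ptpn1 for Cebpb and Mzt2 and Spidr for Cebpd. Peaks were described by their distance from the Cebpb or Cebpd start and were not assigned to a gene.

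Values for each peak are the fold enrichment, which is ChIP over local input background at the summit, and the −log10 p of the peak caller. The number of ChIP fragments stacked at the summit was recovered from both. The 4 lists had a similar depth of 7820257 to 7854058 reads, as implied by their genome background. The shortest peak, which reflects the fragment length, was 215 bp in C cells at day −2 and 159 to 164 bp in the other libraries. Intervals are exact 95% intervals for the counting error of fragments, except those of ratios of peak numbers and of medians over sites. The spread between cultures is unknown.

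The first question was how much C/EBPβ binding the Cebpb and Cebpd regions carry in each condition. At day −2 the Cebpb window held 1 peak in each cell type. At 4 h it held 9 C peaks and 10 P peaks. The Cebpd window held 0 peaks at day −2 in either cell type, 0 peaks in C cells at 4 h and 3 peaks in P cells at 4 h. Binding was thus listed around Cebpb in every condition, and around Cebpd in induced P cells only among these 4 lists.

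Each window was then set against windows of the same width over chromosomes 1 to 19 and X. Windows with at least 1 peak in any of the 4 lists served as the background, 7638 for Cebpb and 7615 for Cebpd. Windows without any peak were left out. In C cells at 4 h, 1.07% of the windows with a peak in any list held 9 peaks or more, the number around Cebpb, against a median of 1 peak. In P cells at 4 h, 5.08% held 10 peaks or more, against a median of 3 peaks. At day −2, 9.9% of the windows held a C peak and 17.6% a P peak. When windows without any peak were included, the 4 h shares were 0.629% (C) and 2.98% (P). The day −2 shares were then 5.80% and 10.3%. With a minimum −log10 p of 10, the 4 h shares were 0.563% (C) and 5.68% (P). The Cebpb window was therefore among the most peak-rich ones at 4 h. In windows of 100 kb this was not seen, since 28.2% of them held 2 peaks or more in C cells and 55.0% in P cells. The high number near Cebpb thus came from the outer parts of the window, more than 50 kb from the gene start.

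The Cebpd window did not stand out in this way. At day −2 the windows with 0 peaks made up 90% for C cells and 82.3% for P cells, and 26.6% in C cells at 4 h. Windows without any peak are left out of these shares, so a count of 0 peaks was more common over all windows. The Cebpd window itself would meet this cut only through its 3 P peaks at 4 h. In P cells at 4 h, 51% of windows held 3 peaks or more, and 29.9% did when windows without any peak were included. The combination seen around Cebpd was 0 peaks in C cells and 3 peaks or more in P cells at 4 h. It was found in 331 windows, or 4.35% of the 7615 with a peak in any list. All windows of this width, also those without any peak, numbered 12973.

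**Figure D1:**
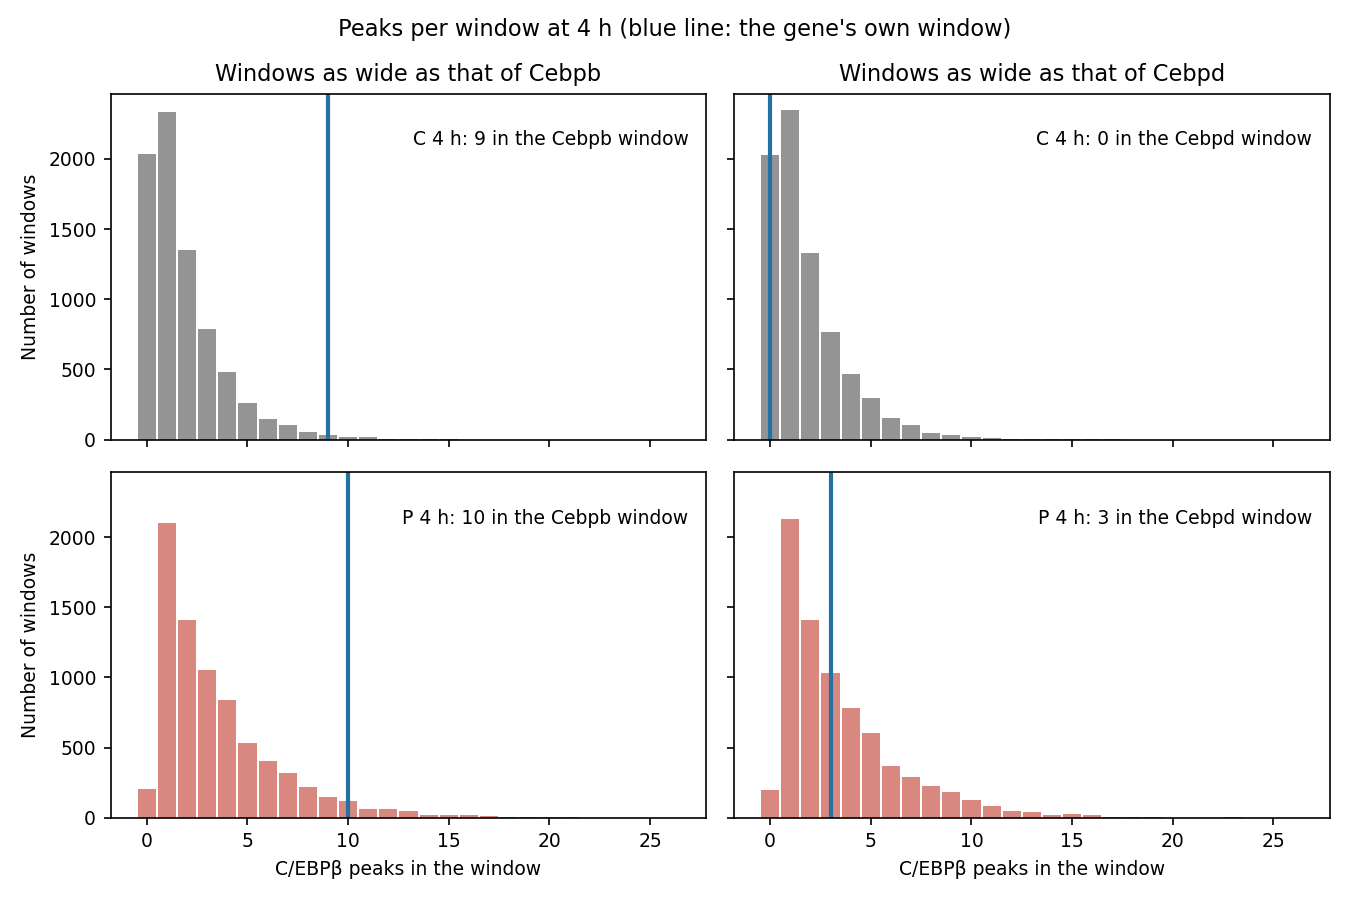
Number of genomic windows (vertical axis) by the number of C/EBPβ peaks they hold (horizontal axis) at 4 h, in C cells (top) and P cells (bottom), for windows as wide as that of Cebpb (left) and of Cebpd (right). The blue line is the gene's own window, which lies in the tail of the distribution for Cebpb (9 and 10 peaks) and in its bulk for Cebpd (0 and 3 peaks).

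**Figure D2:**
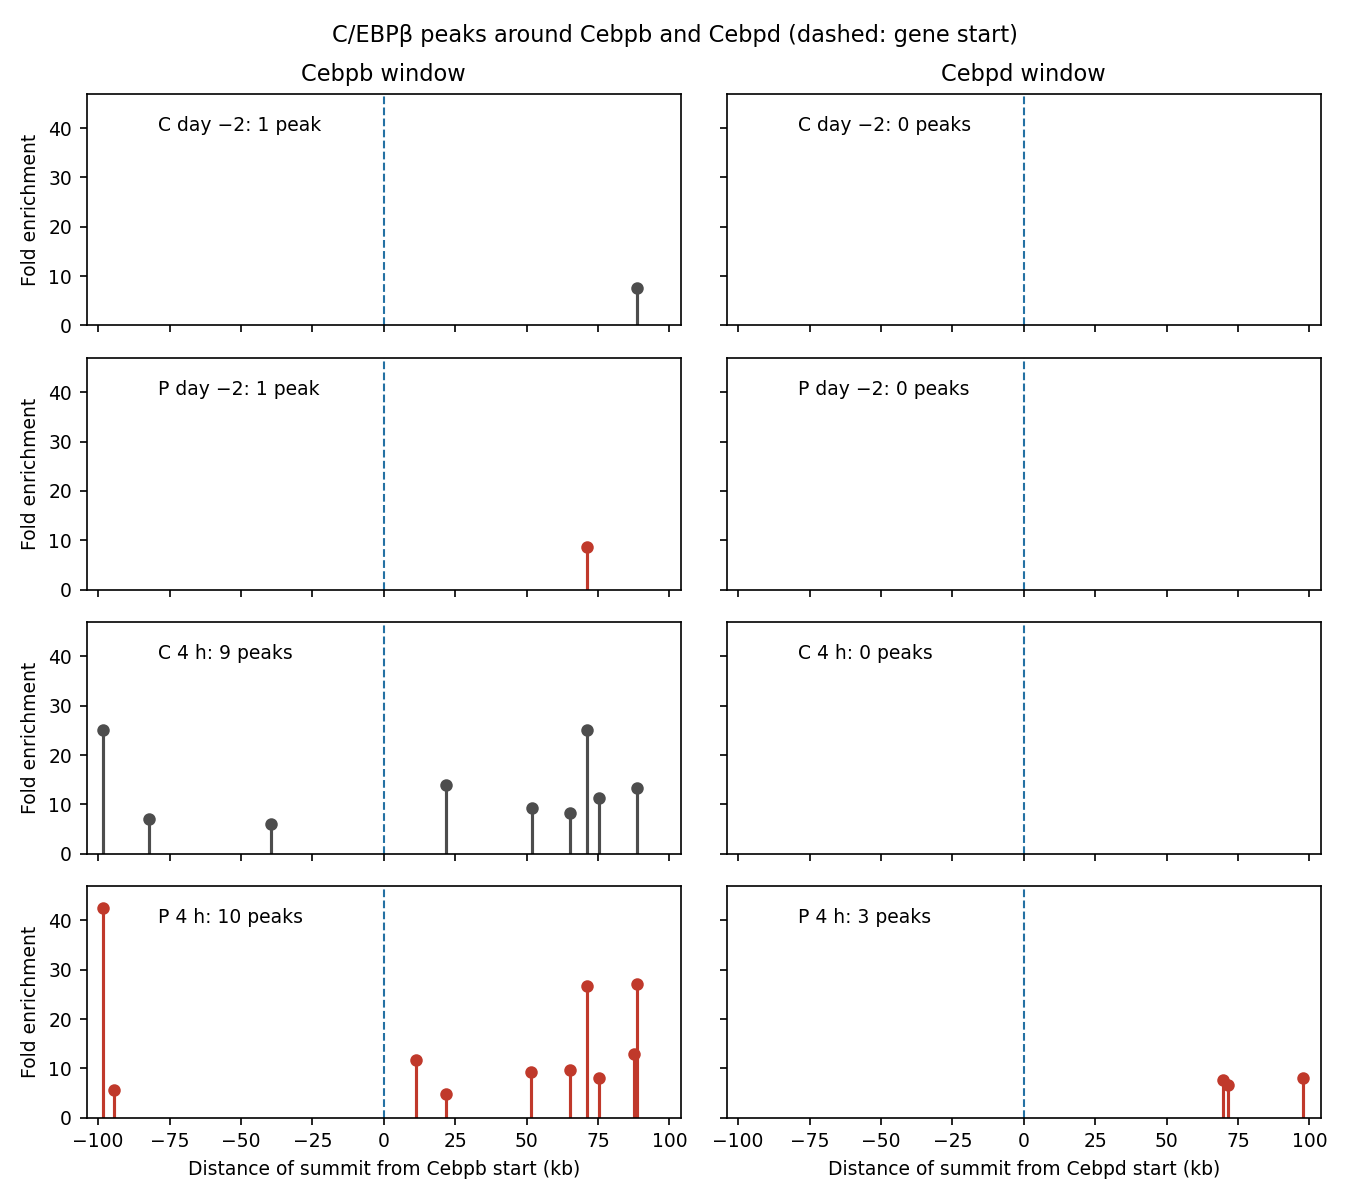
C/EBPβ peaks in the Cebpb window (left) and the Cebpd window (right) in the 4 conditions. Each stem is 1 peak, placed by the distance of its summit from the gene start in kb (negative is upstream), and its height is the fold enrichment. No stem lies within 10 kb of either dashed gene start, and most Cebpb peaks lie over 50 kb downstream.

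No list had a peak within 10 kb of the Cebpb start or of the Cebpd start. Overlapping peaks of the 4 lists formed 12 sites around Cebpb, of which 4 were upstream and 6 lay between 51.7 kb and 88.6 kb downstream. The site nearest to the Cebpb start was 11.3 kb downstream, on chromosome 2 from 167525439 to 167525882. It was listed in P cells at 4 h alone, with a fold enrichment of 11.8, a −log10 p of 23.1 and 24 fragments (15.4 to 35.7). In C cells at 4 h the nearest peak was the one 21.8 kb downstream. Within 50 kb of the Cebpb start each cell type had 2 peaks at 4 h, and 0 peaks at day −2.

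At 4 h the start of Cebpb lay in a stretch without peaks of 61.1 kb in C cells and of 105 kb in P cells. Gaps between neighbouring peaks were at least that long in 46.9% of cases in the C list and in 19.4% of cases in the P list, and such gaps covered 94.1% and 77.0% of the length between peaks. The stretch around the Cebpd start was longer, at 349 kb in C cells and 233 kb in P cells. Gaps at least that long made up 12.2% of the gaps in the C list and 8.48% in the P list. They covered 66.2% and 59.2% of the length between peaks.

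The neighbouring windows gave the local context. Among the 10 windows next to that of Cebpb, 5 on each side, the peak number at 4 h was 0 to 5 in C cells (median 1) and 0 to 7 in P cells (median 1.5). The Cebpb window held more peaks than any of these 10 in both cell types. Around Cebpd the 10 windows held 0 to 5 peaks in C cells (median 1) and 0 to 11 in P cells (median 2). The 3 P peaks of the Cebpd window were within that range.

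A further question was whether the number of sites around these genes differed between C and P cells. At 4 h the P to C ratio of peak numbers in the Cebpb window was 1.11 (0.406 to 3.09), while it was 1.98 (1.93 to 2.02) over all peaks. The interval of the Cebpb ratio held both 1 and the ratio of all peaks. It treats listed peaks as independent, although 7 of the 12 Cebpb sites were listed in both cell types at 4 h. With 1 library per cell type, the Cebpb ratio was not tested against either value. In the 82 other windows with at least 9 C peaks at 4 h, the P list had a median of 14 peaks (6 to 21), and in 12 of them it had 10 or fewer. For Cebpd, 0 against 3 peaks allowed no ratio.

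Of the 12 Cebpb sites, 7 were listed in both cell types at 4 h, 2 in C cells alone and 3 in P cells alone. The 9 C peaks and 10 P peaks around Cebpb thus gave 7 pairs. For the whole 4 h lists, 13525 C peaks and 26713 P peaks gave 11616 pairs. Most C peaks were in a pair both genome-wide and around Cebpb. Most P peaks were outside a pair genome-wide, but not around Cebpb. With so few peaks, this difference was not tested. The C-only sites lay 82.0 kb and 39.5 kb upstream, on chromosome 2 from 167432339 to 167432573 and from 167474879 to 167475043. Their fold enrichments were 7.07 and 6.02 and their −log10 p 11.5 and 11.2, with 13 and 17 fragments. The P-only sites lay 94.6 kb upstream, 11.3 kb downstream and 87.7 kb downstream, the first from 167419816 to 167420296 and the last from 167602105 to 167602304. Their fold enrichments were 5.66, 11.8 and 12.9 and their −log10 p 9.32, 23.1 and 26.0, with 16, 24 and 26 fragments. Each of these 5 sites was in 1 list only, and their fold enrichments stayed below the 13.3 to 42.6 of the 3 strongest shared sites. Of these 5, all but the site 11.3 kb downstream were named after their values were seen, as were the shared sites 51.7 kb and 75.4 kb downstream. A site missing from a list was not called there at the authors' threshold, and its fragment number is not known.

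The strongest site of the Cebpb window was also the most distant one, 98.3 kb upstream, on chromosome 2 from 167415956 to 167416388. It had a fold enrichment of 25.1 (C cells) and 42.6 (P cells) at 4 h, with a −log10 p of 65.0 and 121.9 and with 49 and 79 fragments. The summit was at the same base in both lists, and no peak was listed there at day −2. In their lists, 3.70% of the C peaks and 1.46% of the P peaks at 4 h had a fold enrichment that high. The P to C ratio of fragments was 1.61 (1.11 to 2.35), with an interval above 1. Its log2 was 0.69, against a median of 0.71 over all 11616 pairs of C and P peaks at 4 h.

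Both Cebpb sites with a peak at day −2 were downstream of the gene and were listed in both cell types at 4 h. Nearly all day −2 peaks overlapped a 4 h peak of the same cells, 791 of 838 in C and 1631 of 1653 in P cells. The site 71.1 kb downstream, on chromosome 2 from 167585470 to 167585765, was listed at day −2 in P cells alone, with a fold enrichment of 8.71, a −log10 p of 13.7 and 15 fragments. At 4 h its fold enrichment was 25.0 in C cells and 26.8 in P cells, with a −log10 p of 62.4 and 70.7 and with 46 and 54 fragments. The P to C ratio of fragments there was 1.17 (0.777 to 1.78) after induction. Its log2 was 0.23 (−0.36 to 0.83), an interval that held both equality and the median of 0.71 over all 11616 pairs of C and P peaks at 4 h. Within P cells the 4 h library had 3.60 (2.00 to 6.87) times the fragments of the day −2 library, and the median over all 1631 P pairs of day −2 and 4 h peaks was 2.58 times.

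The site 88.6 kb downstream, on chromosome 2 from 167602997 to 167603565, was listed at day −2 in C cells alone. Its fold enrichment there was 7.58, with a −log10 p of 13.5 and 16 fragments. At 4 h the fold enrichment was 13.3 in C cells and 27.2 in P cells, with a −log10 p of 30.7 and 71.4 and with 30 and 54 fragments. This site, without a P peak before induction, was higher in P than in C cells after it, with a fragment ratio of 1.80 (1.13 to 2.91). The log2 of that ratio was 0.85, against a median of 0.71 over all 11616 pairs of C and P peaks at 4 h. Within C cells the 4 h library had 1.88 (0.9901 to 3.68) times the fragments of day −2, close to the median of 1.91 over all 791 C pairs. The shortest peak was 215 bp at day −2 and 164 bp at 4 h in C cells, against 163 bp and 159 bp in P cells. How far this difference in fragment length enters the C ratios was not tested. The P peak at 4 h was also the widest of the window, at 530 bp against 235 bp in C cells. A P-only site lay next to it, 87.7 kb downstream of Cebpb.

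Neither day −2 peak was strong for its list. In P cells 67.4% of the day −2 peaks had a fold enrichment at least as high as the one at 71.1 kb, and in C cells 56.4% had one at least as high as that at 88.6 kb. None of the Cebpb sites was in all 4 lists, and 2 were in 3 of them.

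The 7 Cebpb sites listed in both cell types at 4 h allowed a direct comparison of signal. Fold enrichment was higher in P cells at 5 of 7 sites, against 82.2% of all 11616 pairs. The median log2 P/C ratio of fold enrichment was 0.10 over the 7 sites (−1.53 to 1.03, an interval of 98.4% cover that spans all 7) and 0.62 over all pairs. For the ChIP fragments alone the median log2 ratio was 0.69 (−0.06 to 1.08) around Cebpb and 0.71 over all pairs. Both Cebpb intervals are the full range of the 7 sites, from 1 library per cell type, and held the median of all pairs. They show the spread between sites, so the Cebpb shift was not tested against the general one. Fragments were higher in P cells at 5 of 7 sites and equal at 1, against 88.5% of all pairs with more fragments in P cells.

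**Figure D3:**
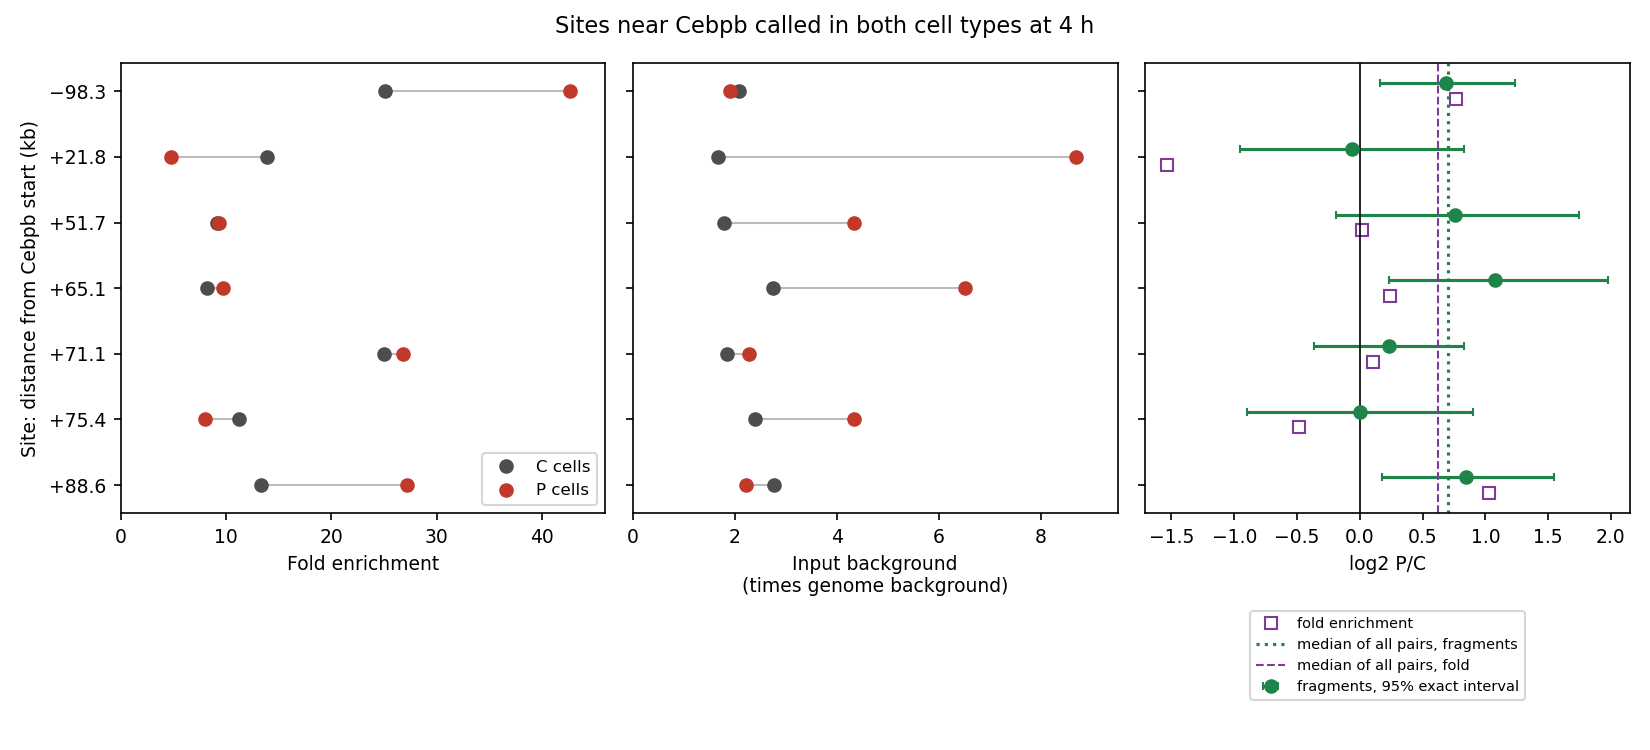
The 7 sites near Cebpb listed in both cell types at 4 h, by distance from the Cebpb start in kb. The panels show fold enrichment (left), input background as a multiple of the genome background (middle) and the log2 P/C ratio (right) of fragments, with exact 95% intervals, and of fold enrichment, with the medians of all pairs as vertical lines. At 21.8 kb the fragments are nearly equal, and the background is 8.68 times the genome-wide level in P against 1.68 times in C cells.

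The site 21.8 kb downstream of Cebpb, on chromosome 2 from 167536147 to 167536389, had the lowest P/C ratio of fold enrichment. Its fold enrichment was 13.9 in C cells and 4.79 in P cells, a log2 P/C ratio of −1.53, and its −log10 p was 27.9 and 10.22. Among all pairs, 0.0689% had a ratio as low. The fragments at the summit were nearly equal, with 24 in C and 23 in P cells and a ratio of 0.958 (0.517 to 1.77). The input background differed, with 1.68 times the genome-wide level in C but 8.68 times in P cells. The peak caller takes the highest of several local estimates, and in P cells this was 4 input fragments (1.09 to 10.24) over the summit itself. In C cells it was 49 input fragments in the surrounding 10 kb.

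A background set by a few input fragments at the summit recurred around Cebpb in P cells. In P cells at 4 h, 5 of the 10 Cebpb peaks had a background set by 2 to 4 input fragments over the summit, and 15.1% of all P peaks at 4 h had one set by 2 or more. A cut of 1 or more fragments kept the same 5 Cebpb peaks and took in 40.3% of all P peaks at 4 h. In C cells a background set by 2 or more was found at 1 of the 9 Cebpb peaks, with 2 such fragments, against 14.2% of all C peaks at 4 h. At the 7 shared Cebpb sites, the background divided by that of the genome was higher in P cells at 5 sites, against 59.9% of all pairs. The median log2 P/C ratio of this background was 0.86, against 0.06 over all pairs. Its part in the lower fold enrichment was not tested, and a count of 2 input fragments has an exact interval of 0.242 to 7.22.

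The shared sites 51.7 kb, 65.1 kb and 75.4 kb downstream of Cebpb also had a higher background in P than in C cells. The site 65.1 kb downstream, on chromosome 2 from 167579462 to 167579805, had 18 fragments in C and 38 in P cells, a ratio of 2.11 (1.18 to 3.93), the highest of the 7. The fold enrichment was 8.24 (C) and 9.74 (P) and the −log10 p 15.4 and 27.9, with a background of 2.74 and 6.51 times the genome background. At 51.7 kb downstream there were 16 fragments in C and 27 in P cells, a ratio of 1.69 (0.877 to 3.35). Its fold enrichment was 9.20 (C) and 9.32 (P), its −log10 p was 16.1 and 20.7, and its background was 1.78 and 4.34 times that of the genome. At 75.4 kb downstream there were 23 fragments in both, and the fold enrichment was 11.2 (C) and 7.99 (P), the −log10 p 22.9 and 16.3 and the background 2.40 and 4.34 times that of the genome. The sites 51.7 kb and 75.4 kb downstream spanned, on chromosome 2, 167566061 to 167566330 and 167589771 to 167590008. Of the 7 sites, 3 thus had a fragment ratio whose interval lay above 1, namely those 98.3 kb upstream and 65.1 kb and 88.6 kb downstream of Cebpb, and none had an interval below 1. Over all pairs, 40.5% had an interval above 1. Adjustment for 7 intervals was not made.

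Summits at the 7 shared sites were between 0 and 57 bp apart in C and P cells at 4 h. The day −2 summits at 71.1 kb and 88.6 kb lay within 13 bp and 20 bp of the 4 h ones.

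Around Cebpd, C/EBPβ peaks were fewer than around Cebpb, and the nearest one lay further from the gene start. The 3 peaks of P cells at 4 h lay 69.6 kb, 71.4 kb and 97.9 kb downstream of the Cebpd start, on chromosome 16 from 15956922 to 15957092, from 15958717 to 15959081 and from 15985213 to 15985428. Their fold enrichments were 7.67, 6.66 and 7.99, and their −log10 p were 11.6, 12.2 and 12.5. They had 14 fragments (7.65 to 23.5), 19 fragments (11.4 to 29.7) and 15 fragments (8.40 to 24.7). Between 79.5% and 91.2% of the P peaks at 4 h had a fold enrichment at least as high, so all 3 were among the weaker ones of their list. Their counts overlapped each other, and 9 of the 10 Cebpb peaks of the same list had more fragments than each of them. No Cebpd peak was upstream of the gene.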

How the data were processed

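C/EBPβ ChIP-seq peak lists of 4 libraries were used. Per the paper's methods and the submitters' processing notes, the authors trimmed Ion Torrent reads (FASTX-Toolkit), aligned them to mm9 with Bowtie 0.12.8, kept unique alignments, removed duplicates, down-sampled the mapped reads to equal numbers with SAMtools 1.3.1 and called peaks against input with MACS2 2.0.10.20131028. The deposited columns hold a fold enrichment (a ratio), a −log10 p and a −log10 q, which served only as an alternative threshold.

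The 2 windows, the gene starts and the compared sites were chosen with earlier results of these data known. Peaks overlapping a window by at least 1 bp were taken, and overlapping peaks were merged into sites. At 4 h each C peak was paired with the P peak it overlapped (with the highest −log10 p where several did). The fragments stacked at a summit and its input background were recovered from fold and p, which are (fragments + 1)/(background + 1) and a Poisson tail, and for 100% of peaks a whole number of fragments gave the deposited −log10 p within 0.002. For 5 P peaks at 4 h the first solution had a background below that of the genome, and the one above it was taken. The recovery was tested on simulated data. The rule for named sites took those with a day −2 peak, the one nearest the start and the 5 of highest −log10 p per window. The other 6 Cebpb sites were added after their values were seen. Exact Poisson and binomial intervals (95%) came from SciPy 1.17.1 (Python 3.11.15, pandas 2.3.3). Alternatives were a q-value under 0.01, a minimum −log10 p of 10, a minimum fold of 5, an inner window of 100 kb, shifted or all windows, and other pairings. No genome or promoter sequence of this build was used here, so no sequences or motifs are given.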

Additional observations from a re-analysis of the deposited data

How the results depend on the processing

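Of 64 alternative values, 45 stayed close to the reported one, 18 moved and 1 changed sign. A share or a median counted as close within the exact interval of the reported value, and a number of peaks within 1.5 times. Counts of 0 Cebpd peaks could not change under a stricter threshold or a smaller window, yet were among those that stayed close. The median of 0.69 for fragments counted as close to 0.10 for fold enrichment, because that interval spans all 7 shared Cebpb sites. The tally is therefore no measure of robustness. With a minimum −log10 p of 10, the share of windows with at least as many peaks as that of Cebpb was 8.54% (C) and 16.6% (P) at day −2 and 0.563% (C) and 5.68% (P) at 4 h, and 47.6% for Cebpd in P cells at 4 h. With a minimum fold of 5 it was 6.74% for Cebpb in P cells at 4 h. With all windows, also those without peaks, the shares for Cebpb were 5.80% and 10.3% at day −2 and 0.629% and 2.98% at 4 h, and 29.9% for Cebpd in P cells. The inner 100 kb held 0 and 0 Cebpb peaks at day −2 and 2 and 2 at 4 h (shares of 28.2% in C and 55.0% in P cells), and 0 Cebpd peaks. It left 1 shared Cebpb pair, with a log2 P/C fold enrichment of −1.53 in place of a median of 0.10. The median was 0.06 when pairs had to overlap reciprocally by 50%. No paired analysis was possible because each condition had 1 library. No pair was shared at Cebpd, and the planned look at promoter motifs was not run. With 1 library per condition, a difference between C and P cells or between times cannot be told apart from a difference between libraries. Fragments at a summit were few, with 14 to 19 at the Cebpd peaks and 13 to 17 at 6 of the Cebpb peaks.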

Other observations

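Beyond the windows, the next C/EBPβ sites on either side were listed as follows. Upstream of Cebpb, 113.9 kb from its start, a site in both 4 h lists had a fold enrichment of 15.6 (C) and 29.9 (P), with 35 and 67 fragments. Downstream of Cebpb, 134.5 kb from its start, another shared site had a fold enrichment of 12.8 (C) and 33.8 (P), with 27 and 71 fragments. Both had more fragments in P cells, as 88.5% of all shared pairs at 4 h did. Upstream of Cebpd, 163.2 kb from its start, a site had a fold enrichment of 7.52 (C) and 27.0 (P) at 4 h, with 14 and 53 fragments. Downstream of Cebpd, 125.0 kb from its start, a P-only site had a fold enrichment of 8.89 and 12 fragments. Neither Cebpd-side site was listed at day −2. These sites were looked at after the values in the windows were known.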
